A study of Mus musculus with 11 samples.

Results

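Of 45281 probes on the mouse expression array, 126 met a rule for transcripts that were more abundant after differentiation in 2 embryonic stem cell lines and ended at similar levels in both. The rule was applied to quantile-normalized log2 intensities. It required detection (detection p-value under 0.05) on all 7 arrays of embryoid bodies. It further required a mean at least 1 log2 unit, or 2-fold, higher in embryoid bodies than in stem cells within each line, and a difference under 0.3 log2 units between the embryoid bodies of the lines. The stage difference of a line, embryoid body mean minus stem cell mean, is called its rise here. The probes were chosen by these 3 contrasts, which are therefore described below without a test. The set had been proposed as transcripts rising equally with and without connexins, and the data go against that name in 1 respect. Levels in embryoid bodies were similar by selection, but the rise was larger in the control line for 110 of the 126 probes. It was larger for 94 when deleted stem cell replicate 1, an array that stood apart on these probes, was left out. The rises lay within 0.3 of each other for 48 probes with all arrays and for 69 without that replicate. These counts describe probes chosen on the same rises, and no share over all probes was set beside them. The median control rise was also the larger over all 1387 probes detected in embryoid bodies with a control rise of at least 1. Median rises there were 1.39 (control) and 0.59 (deleted). Those probes were chosen on the control rise alone, which itself favours a larger control rise.

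Both lines were male and C57BL/6. The control line, labelled Cx43/45 flox, carries both connexin genes. The other, labelled Cx43/45 del and called the deleted line here, lacks exon 3 of Cx43 and exon 3 of Cx45, and has lacZ driven by the Cx43 promotor and eGFP driven by the Cx45 promotor. Stem cells were grown with leukemia inhibitory factor on a feeder layer of mouse embryonic fibroblasts. Embryoid bodies were started as hanging drops without that factor and harvested on day 6, with about 300 bodies pooled per sample. Stem cells were measured on 2 arrays per line, control bodies on 3 and deleted bodies on 4. The design text calls these biological replicates, but the labels name no separate cultures, and each genotype is 1 described line. A difference between genotypes is therefore a difference between these lines, and p-values describe only how much these samples vary, which may be technical.

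Connexins form gap junction channels, which pass ions and small molecules directly between neighbouring cells. Connexin43 is the main connexin of many embryonic and adult cell types, and connexin45 is expressed widely in the early embryo. Embryoid bodies are aggregates in which stem cells leave pluripotency and begin to form the germ layers, with an outer epithelium of primitive endoderm, the tissue named in the title of the series. Probes were not matched to genes here, so each is named by its array identifier, the roles of the transcripts are not described and the deleted genes were not checked. In such bulk samples, fewer cells of a type and less RNA per cell cannot be told apart.

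Between 39.7% and 43.0% of all probes were detected per array. Within a group, array pairs had a Pearson correlation over all probes of 0.976 to 0.994. Precision is limited by the number of arrays.

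The 126 probes were a minority of what the control line raised. Of 14518 probes detected on all embryoid body arrays, 1387 had a control rise of at least 1. In deleted embryoid bodies, 858 of these were lower than in control bodies by 0.3 or more, 85 were higher by 0.3 or more, and 444, or 32.0%, lay within 0.3. Choosing on the control rise favours high values in control bodies, so this split is tilted by the choice. The deleted line's own rise reached 1 in 126 of those 444 and fell short of it in 318. Chosen on the deleted rise instead, 529 of the 14518 probes had a rise of at least 1. A rise of at least 1 in both lines was found for 255 probes, of which 73 were lower and 56 higher in deleted embryoid bodies by 0.3 or more.

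**Figure D1:**
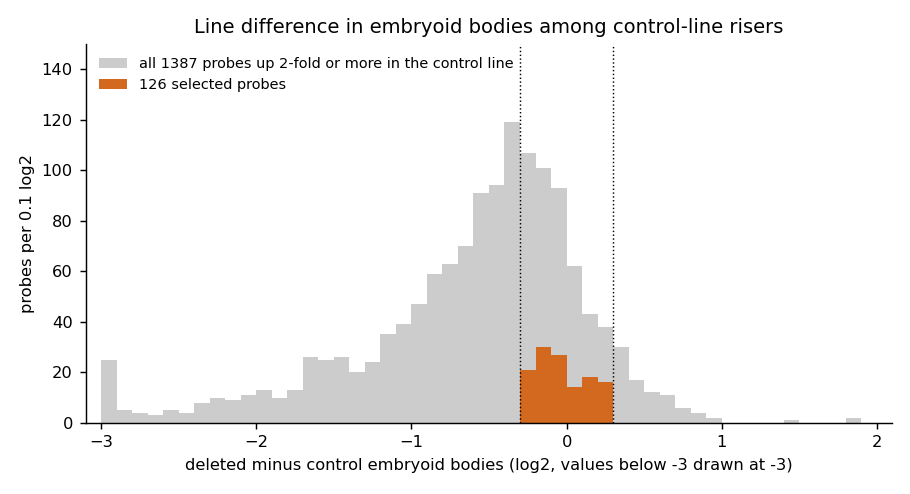
Histogram of the log2 difference, deleted minus control embryoid bodies, for the 1387 probes with a control rise of at least 1 (grey), with the 126 selected probes in orange and dotted lines at -0.3 and 0.3. Most of the grey distribution lies left of the window, 858 probes being lower in deleted bodies by 0.3 or more. The grey probes were chosen on the control rise, which favours lower values in deleted bodies. The orange bars fill only part of the window because 318 probes in it had a deleted rise under 1.

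In level the selected transcripts covered a wide range. Their mean normalized intensity in embryoid bodies ran from 298 to 22982 units with a median of 973, and 34 reached at least 11 on the log2 scale. Readings with a detection p-value of at least 0.5 had a median of about 110.1 units, and this level stands for undetected probes here. On all 4 stem cell arrays 118 of the 126 were detected, or 93.7%, a share near the background: it was 86.2% for the 1387 probes raised in the control line and 91.2% for the 14518 detected in embryoid bodies. The other 8 were detected on 3 stem cell arrays for 1 probe, on 2 for 5 probes, on 1 for 1 probe and on none for 1 probe. In control stem cells 47 of the 126 lay within 1 log2 unit of undetected probes, where array background compresses fold changes.

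The probe without detection in stem cells was ILMN_2889482. It read 119 and 118 units on the control stem cell arrays and 121 and 118 on the deleted ones. In control embryoid bodies it read 413, 289 and 232 units, and in deleted bodies 237, 301, 322 and 326. All embryoid body arrays stood above all stem cell arrays, and the embryoid bodies of the lines overlapped. Its rise was 1.35 in the control line and 1.30 in the deleted line on the log2 scale, and array background at the stem cell level compresses both.

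Across the set, the rise in the control line ranged from 1.01 to 3.15 on the log2 scale with a median of 1.69, or 3.22-fold. The rise in the deleted line ranged from 1.00 to 2.73 with a median of 1.26, or 2.40-fold. Over all 23268 probes tested the same medians were -0.01 and 0.02. A rise of 2 or more was found for 40 probes in the control line and for 3 in the deleted line, and 102 of the 126 had a deleted rise under 1.5. Without deleted stem cell replicate 1, the deleted rise was 2 or more for 21 probes and under 1.5 for 59. The control rise was larger by 0.3 or more in 75 probes, the deleted rise was larger by that much in 3, and the rises lay within 0.3 of each other in 48. Without deleted stem cell replicate 1 these counts were 47, 10 and 69.

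**Figure D2:**
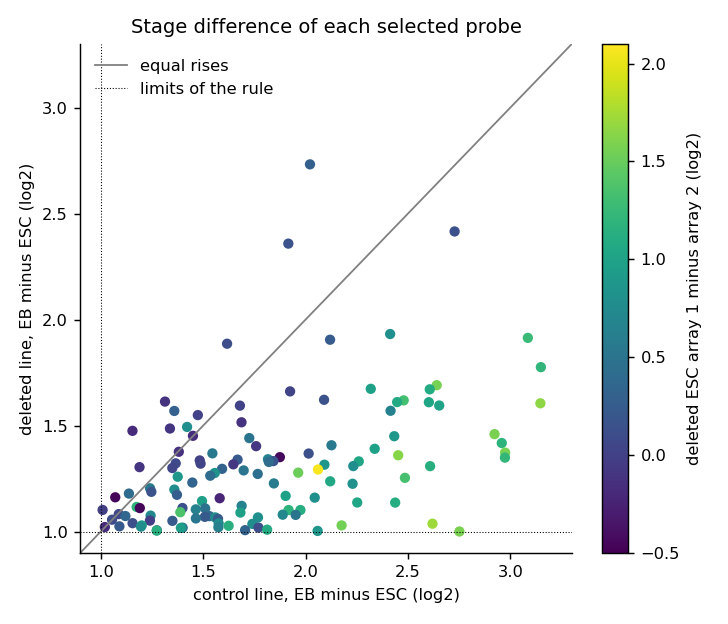
Rise of each of the 126 probes in the control line (horizontal) and the deleted line (vertical), both in log2 units, coloured by the difference between the deleted stem cell arrays (replicate 1 minus replicate 2). Points lie below the line of equal rises for 110 probes. The deleted stem cell arrays enter the vertical axis, so colour and height are tied by arithmetic.

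Counts of calls are given beside their background, and nothing is read from them, since the rule used these contrasts. In a limma fit of all 11 arrays, 125 of the 126 passed an adjusted p of 0.05 as rising in the control line, where 18.3% of probes tested did. In the deleted line 117 passed as rising, against 10.5%. All control embryoid body arrays stood above both control stem cell arrays for 126 probes (28.8% of probes tested), and the same held in the deleted line for 119 (23.2%). For 115 probes all 7 embryoid body arrays stood above all 4 stem cell arrays (9% of probes tested).

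The probes with the largest rise in both lines, ranked by the smaller of their rises, are shown first because they carry the pattern most clearly. ILMN_2484932 led this ranking. It read 149 and 151 units in control stem cells and 171 and 155 in deleted stem cells. It read 826, 1018 and 1177 units in control embryoid bodies and 944, 563, 1035 and 1038 in deleted bodies. The stem cell arrays of both lines were at one low level and the embryoid bodies of the lines overlapped. Its rise was 2.73 ± 0.25 (SE) in the control and 2.42 ± 0.23 in the deleted line, or 6.62-fold and 5.34-fold.

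ILMN_2774497 had the same shape. Its stem cell arrays read 221 and 245 units (control) and 276 and 233 units (deleted). Its embryoid body arrays read 839, 1150.1 and 1071 units (control) and 1192, 829, 924 and 893 units (deleted). The groups of each stage overlapped, and the rises were 2.12 ± 0.17 (SE) and 1.91 ± 0.17. The interval of the embryoid body difference, deleted minus control, was -0.41 to 0.24 (95%, limma).

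In ILMN_2691752 and ILMN_3070389 the deleted line had the larger rise. ILMN_2691752 read 320.0 and 218 units in control and 210.4 and 173 in deleted stem cells. Its control embryoid bodies were uneven, at 537, 1409 and 1631 units, while deleted bodies read 1188, 1123, 1298 and 1492. The rises were 2.02 ± 0.39 (SE) and 2.73 ± 0.37, and without control embryoid body replicate 1 the control rise was 2.53. ILMN_3070389 read 694 and 641 units in control and 595 and 533 in deleted stem cells. Its embryoid body arrays read 2039, 2978 and 2629 units in the control line and 2364, 3252, 2847 and 3185 in the deleted line. Deleted stem cells were below control stem cells without overlap, and the rises were 1.92 ± 0.17 (SE) and 2.36 ± 0.16.

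The other 4 of the leading 8 had a higher starting level in deleted stem cells, most of it on replicate 1. ILMN_3145213 read 966 and 814 units in control stem cells but 2781 and 1157 in deleted stem cells. Its embryoid bodies read 9209, 6463 and 7159 units in the control line and 7376, 6865, 5789.8 and 7121 in the deleted line. The endpoints overlapped and the starting points did not, so the rises were 3.09 ± 0.30 (SE) and 1.91 ± 0.29, or 8.49-fold and 3.77-fold. With only deleted replicate 2 as the starting point the deleted rise was 2.55, and with only replicate 1 it was 1.28.

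ILMN_1214659 showed the gap within 1 group most plainly. Its control stem cells read 139 and 156 units, and deleted stem cells 431 and 145. Deleted replicate 2 thus lay within the control values and replicate 1 lay well above them. The embryoid bodies read 1050.0, 778 and 951 units (control) and 985, 646, 758 and 879 units (deleted), and the deleted rise was 2.48 from replicate 2 and 0.90 from replicate 1. For ILMN_2589477 and ILMN_2705119 deleted replicate 1 read 496 and 319.8 units and replicate 2 read 216 and 185, against at most 156 and 151 in control stem cells.

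**Figure D3:**
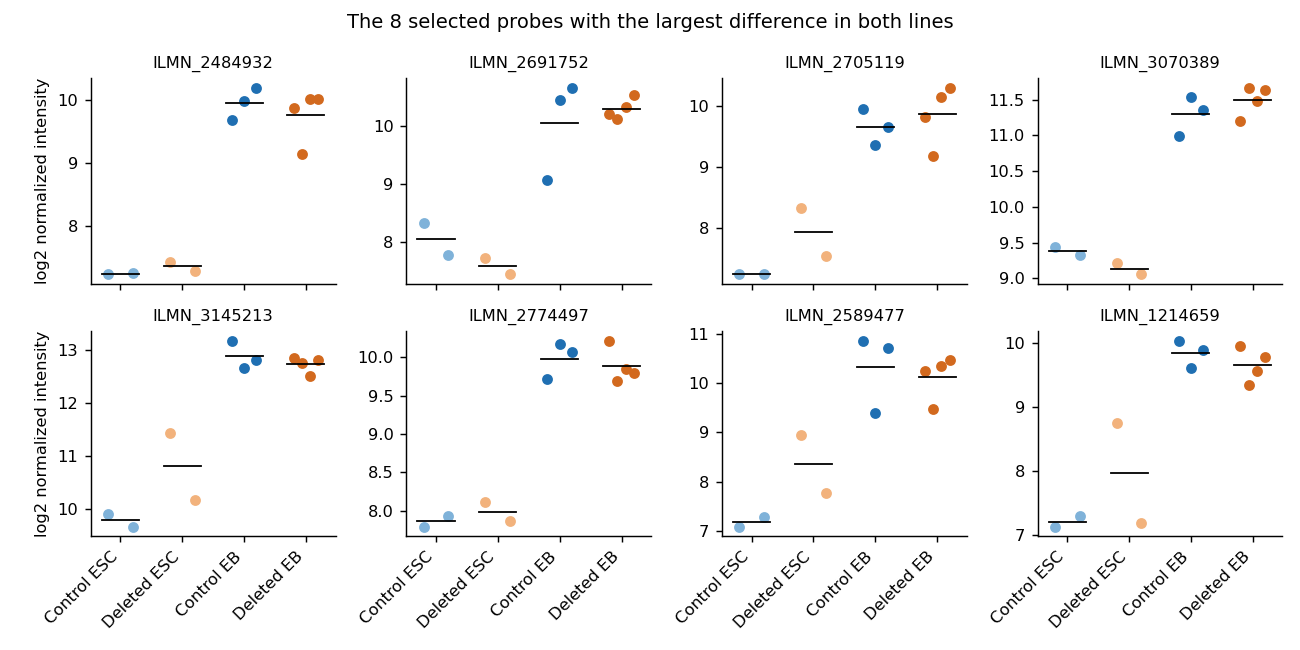
Log2 normalized intensity of the 8 probes with the largest rise in both lines, 1 panel each, with a point per array and a bar at the group mean. Embryoid body points of the lines (dark blue control, dark orange deleted) overlap in every panel, while in the stem cell groups the deleted points (light orange) are spread apart for ILMN_3145213, ILMN_2589477, ILMN_1214659 and ILMN_2705119.

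The brightest members followed the second shape. ILMN_1259869 read 2918 and 5921 units in control stem cells and 15662 and 7266 in deleted stem cells. It read 22681, 18770.0 and 26815 units in control and 22144, 18325, 26586 and 28061 in deleted embryoid bodies. On deleted replicate 1 this transcript stood well above the other stem cell arrays and below every embryoid body array, and its rises were 2.44 and 1.14. ILMN_2646163 read 6324 and 6126 units in control stem cells, 15594 and 7911 in deleted stem cells, and 17188 to 24716 over the embryoid body arrays, with rises of 1.68 and 1.09. ILMN_2527694 and ILMN_2528091 had deleted stem cell values of 7266 and 3459.6 units and of 6204 and 2919.7 units, against at most 3307 and 2669 in control stem cells. Their rises were 2.45 and 1.61, and 2.61 and 1.67.

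The array medians of the whole set are given by stage. The rule held the embryoid bodies of the lines close, so only the stem cell medians could differ much between lines. In stem cells the median of the 126 probes was 8.09 and 8.10 on the control arrays, 8.26 on deleted replicate 2 and 8.92 on deleted replicate 1 (log2 intensity). In embryoid bodies it was 9.87, 9.87 and 10.07 on the control arrays and 10.08, 9.76, 9.98 and 10.07 on the deleted arrays. Deleted stem cell replicate 1 was the highest of the 4 stem cell arrays for 102 of the 126 probes, against 29.5% of probes tested. Among the 318 probes with equal embryoid body levels and a deleted rise under 1 it was highest for 306, and among the 858 that were lower in deleted bodies for 574. Replicate 1 exceeded replicate 2 by 0.3 or more in 81 of the 126 and by 1 or more in 32. The median difference between these arrays was 0.57, against -0.08 between the control pair and -0.02 for the deleted pair over all probes tested. For the deleted pair it was 0.47 over the 1387 probes raised in the control line and 0.67 over the 318, so the gap is not particular to the 126.

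**Figure D4:**
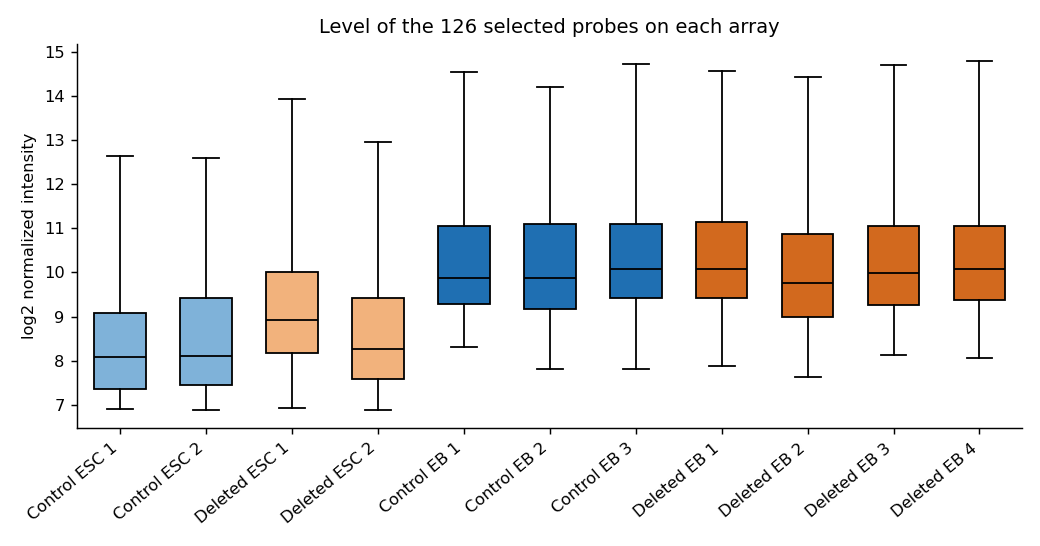
Log2 normalized intensity of the 126 probes on each of the 11 arrays, with boxes from the lower to the upper quartile, a line at the median and whiskers to the lowest and highest probe. The 7 embryoid body arrays have medians of 9.76 to 10.08, and among stem cells deleted replicate 1 stands at 8.92 while the other 3 arrays stand at 8.09 to 8.26.

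Taking replicate 2 alone as the starting point, the median deleted rise over the 126 was 1.55, close to the 1.69 of the control line, and taking replicate 1 alone it was 0.96. Which probes met the rule also turned on these arrays. When the selection was repeated without deleted stem cell replicate 1, 282 probes met it, among them 123 of the 126. Without deleted replicate 2, 62 met it, 59 of them from the 126. Leaving out any of the other 9 arrays gave 104 to 142 probes, with 94 to 123 of the 126 among them. The labels give no difference in handling between the deleted stem cell samples, and the part of any such difference in these counts was not tested.

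**Figure D5:**
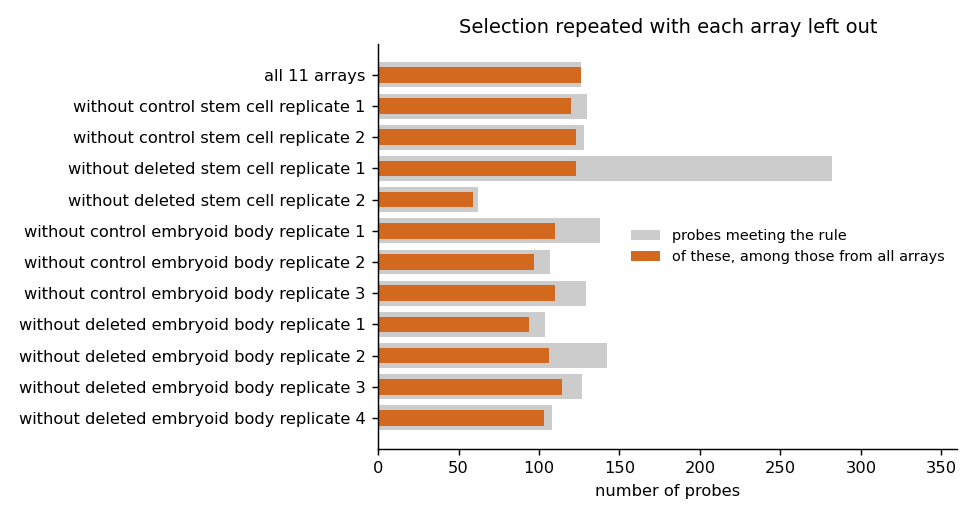
Number of probes that met the rule with all 11 arrays and with each array left out (grey), and how many of them were among the 126 (orange). The grey bar reaches 282 without deleted stem cell replicate 1 and shrinks to 62 without deleted stem cell replicate 2.

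The difference between the stem cell lines has no limit of its own in the rule, but the contrasts of the rule fix it. It equals the control rise minus the deleted rise plus the embryoid body difference, whose size the rule held under 0.3 log2 units. It is therefore no separate test of the set. A low control value favours both a control rise and a positive difference. Calls and intervals for this difference are given beside their background, and nothing is read from them. Over the 126 probes the difference ranged from -0.47 to 1.78 on the log2 scale (deleted minus control) with a median of 0.35. The median was -0.01 over all probes tested and 0.37 over the 1387 probes raised in the control line. A shift was thus also present over those 1387 probes, which were themselves chosen on the control rise. Deleted stem cells were higher on average in 110 of the 126, which largely restates the larger control rise. No share over all probes was set beside this count. Both deleted arrays stood above both control arrays in 67 (17.9% of probes tested). In limma 0 of the 126 passed an adjusted p of 0.05, as did 0% of the 23268 probes tested. At an unadjusted p under 0.05 there were 40 of the 126, all higher in deleted cells, and 8.99% of all probes (4.84% counting only those higher in deleted cells). With the trended robust fit 0 of the 126 passed the adjusted threshold, as did 0 of the 23268 probes tested. The unadjusted one was passed by 43 of the 126 and by 2142 of the 23268. The 95% interval of this difference reached a median of 0.57 log2 units to either side. Without deleted replicate 2, which leaves replicate 1 alone and assumes it varies like the other groups, 27 of the 126 passed, against 2.16% of probes tested. Without deleted replicate 1, or without control replicate 1, 0 of the 126 passed and 0% of probes did. Without control replicate 2, 0 of the 126 passed, against 0.117% of probes tested.

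The largest stem cell differences were those of ILMN_1217826, ILMN_2639036, ILMN_1239110 and ILMN_3013874. ILMN_1217826 read 281 and 317 units in control stem cells and 1863 and 566 in deleted stem cells. Its control embryoid bodies read 1184, 2206 and 2369.6 units and its deleted bodies 2433, 2628, 1859 and 1661. Deleted stem cell replicate 1 lay within the range of the embryoid bodies, and replicate 2 lay between the stages. The stem cell difference was 1.78 (95% interval 0.68 to 2.89, limma adjusted p = 0.51). Probes named for the largest difference have estimates that lean large, so this interval no longer has its stated coverage. From replicate 1 alone its deleted rise was 0.18, and from replicate 2 alone it was 1.90.

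ILMN_1239110 gave 363 and 705 units in control stem cells, 2513 and 842 in deleted stem cells, 2924 to 4455 in control bodies and 1714 to 3722 in deleted bodies. Its deleted stem cell replicate 1 exceeded deleted embryoid body replicate 2. ILMN_3013874 gave 449.9 and 696 units, then 2347 and 1008, with 2854 to 5595 and 2109 to 5763 units in the embryoid body groups. The stem cell differences of these probes were 1.52 and 1.46 (limma adjusted p = 0.51 and 0.52).

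In embryoid bodies the lines differed little by construction, so only the size and spread of the difference are given. The difference, deleted minus control, had a median of -0.07, with 78 probes lower and 48 higher in deleted bodies. The median was 0.00 after median scaling and 0.01 without deleted embryoid body replicate 2, so its sign changed with these choices. No probe of the 126 passed in the limma comparison of the lines, where 22.5% of probes tested did, and the arrays of the lines did not overlap for 3 of the 126 (32.8% of probes tested). Those 3, ILMN_1246006, ILMN_2770414 and ILMN_2685133, named after their values were seen, were lower in all deleted bodies. A missed threshold does not show equal levels. The 95% interval of the difference lay within 0.3 log2 units of 0 on both sides for 3 probes, within 0.5 for 38 and within 1 for 118, and it reached a median of 0.43 to either side. Because the rule chose differences near 0, these intervals describe the spread of the arrays and no longer have their stated coverage.

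The members with the smallest and largest spread over embryoid body arrays are given as examples. ILMN_2993455 read 331 and 305 units in control and 356 and 326 in deleted stem cells. Its embryoid bodies read 686, 719.9 and 718 units (control) and 779.9, 622, 748 and 664 (deleted), with an interval of -0.22 to 0.19 for the difference. ILMN_2708340 and ILMN_1249817 spanned 0.28 and 0.33 log2 units over the 7 embryoid body arrays. ILMN_1249817 nevertheless had deleted stem cells at 2138 and 847 units against 527 and 694 in control stem cells, and rises of 2.49 and 1.25. At the other end ILMN_2639036 spanned 1.95 log2 units. Its control bodies read 2439.7, 1008 and 3322 units and its deleted bodies 1683, 1125, 3312 and 3884, and its interval ran from -1.04 to 1.33. ILMN_2691752 and ILMN_2589477 spanned 1.60 and 1.47. The median span was 0.64. In 119 of the 126 probes the probe's own span was smaller than its smaller rise, which the rule had set at 1 or more.

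Embryoid body replicate 2 of the deleted line was often low on these probes. Deleted replicate 2 was the lowest of the 4 deleted arrays for 71 of the 126 probes, against 28.2% of probes tested. Replicate 2 was lowest in both lines at once for 36 probes, against 9.55%. ILMN_2589477 was such a case, with 673 units on control replicate 2 against 1869 and 1694, and 713 on deleted replicate 2 against 1208, 1300.0 and 1416. Where replicate 2 is often the lowest within a line, such joint cases arise without any link between the lines. The count therefore does not show a shared deviation. Deviations of the replicate 2 embryoid body arrays of the lines correlated at -0.01. No label says that embryoid body arrays with the same number shared a day or a batch.

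The same measures were then read on arrays that the choice had not used. Those arrays came from the same 2 lines with no separate cultures named, so they show only how far arrays of these lines agree. Each choice rested on 1 stem cell array per line. When the rule was applied to stem cell replicate 1 and embryoid body replicates 1 and 2 of each line, 61 probes met it. On the remaining 5 arrays 44 of the 61 had a control rise of at least 1 (72.1%, against 9.66% of 16083 probes detected there) and 50 had a deleted rise of at least 1 (82.0%, against 6.26%). The lines lay within 0.3 in embryoid bodies for 36 of the 61, or 59.0%, a share near the 54.9% of all detected probes. All parts of the rule held for 28 of the 61, or 45.9%, against 1.83% of detected probes. When stem cell replicate 2 made the choice instead, 270 probes met the rule. On the arrays then held out, including stem cell replicate 1, 226 had a control rise of at least 1, but only 58 a deleted rise of at least 1, and all parts held for 35, or 13.0%, against 0.51% of detected probes. The median stem cell difference on the held-out arrays was 0.03 in the first case and 0.83 in the second.

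At the limits of the rule, values just inside and just outside were nearly the same. ILMN_2793522 entered with a control rise of 1.009, and ILMN_2653860 missed with 0.9998. ILMN_1239110 entered with a deleted rise of 1.0004 and ILMN_2629120 missed with 0.9994. ILMN_1246006 entered with an embryoid body difference of -0.299, and ILMN_1249032 stayed out with 0.302.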

How the data were processed

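RNA of 11 samples was hybridized to 1 Illumina MouseWG-6 bead array each. Per the design text of the series, the authors exported the deposited intensity values from GenomeStudio 2011.1 (Gene Expression module 1.9.0). The deposited intensities are not normalized between arrays, and the authors quantile normalized them afterwards. Background subtraction was not given in the sources used here. No offset was added before log2, as the lowest intensity is 85.9. The deposited detection p-value ranks a probe within its array and moves in steps of 1 in 936. Intensities were quantile normalized over 11 arrays and log2 transformed, and the rule was applied to group means.

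Tests used limma 3.58.1 in R 4.3.3, with 4 group means and Benjamini-Hochberg adjustment over 23268 probes detected on at least 2 arrays. The other 22013 were left out. The submitters' processing notes also name limma, with no version found for it. Standard errors and intervals are limma's. The fit was tested on simulated data. The members, tests and lists were chosen with earlier results of these data known. Named probes are the 8 with the largest smaller rise, the 4 brightest in embryoid bodies, the 4 with the largest stem cell difference, the 3 with the widest and the 3 with the narrowest embryoid body range, those undetected in stem cells, and 1 probe on either side of each limit. Gene names and sequences were not used here. Alternatives were median scaling, limma's neqc with an offset of 16, other limits, other detection filters, fits of only the groups compared, a block for the replicate number, moderation with trend and robust settings, and leaving out each array in turn with normalization repeated.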

Additional observations from a re-analysis of the deposited data

Results flagged for a closer look

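In 26 measures over the 4 deleted embryoid body arrays (the median of the 126 probes and each named probe), 1 had an array far from the others. Chance gives about 1 in 20, or 1.3 of the 26, so 1 is no more than chance gives. This was ILMN_2484932, with 563 units on replicate 2 against 944 to 1038 on the other arrays, a gap of 0.845 of the whole range. Deleted replicate 2 was also the lowest deleted array for 71 of the 126 probes.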

How the results depend on the processing

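The number of probes that met the rule depended on scaling and limits. It was 203 after median scaling (114 of the 126 among them), 382 with neqc (118 among them), 268 with rises of at least 0.8 and 21 with rises of at least 1.5. Leaving out single arrays gave 62 to 282. The median control rise was 2.35 with neqc, which removes background, and 1.64 to 1.74 with single arrays left out. The median deleted rise was 1.59 with neqc and 0.96 to 1.55 with single arrays left out. The held-out share meeting the rule, 45.9%, was 13.0%, 6.34% and 14.5% whenever stem cell replicate 1 was held out. Leaving out single arrays gave 5248 to 9023 calls for the control stage change, where 8789 were called with all arrays and 5248 without control stem cell replicate 1. It gave 2618 to 5526 for the deleted stage change, where 5189 were called and 2618 without deleted stem cell replicate 2, and 4059 to 5534 for the embryoid body difference. For the stem cell difference it gave 0 to 496, the highest without deleted replicate 2, and 27 without control replicate 2. The cause of these shifts was not tested. With the replicate number as a block, calls were 7483, 3556, 4126 and 0 in these comparisons. Same-numbered embryoid body arrays correlated at 0.08, -0.01 and 0.19 in their deviations, so the numbers were not taken to pair them. No rise of a named probe changed sign under median scaling, neqc or a left-out array. These probes had rises of at least 1, or just under it, by choice, so a change of sign was unlikely from the start. Sizes did move: the deleted rise of ILMN_1217826 was 0.18 from deleted stem cell replicate 1 alone and 1.90 from replicate 2 alone.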
